A study of Mus musculus with 6 samples.

Results

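The genes described are 10 claudins, Cldn1, Cldn2, Cldn3, Cldn4, Cldn6, Cldn7, Cldn8, Cldn9, Cldn12 and Cldn23, chosen by name from 18193 genes on the array. Every probe set whose annotation names 1 of them alone was taken, 19 probe sets in all. They were measured in 393P, a cell line derived from a mouse lung adenocarcinoma. The Zeb1 vector group was 3 cultures of cells stably transfected for constitutive Zeb1 expression, and the control vector group was 3 cultures of the same line stably transfected with the empty pcDNA vector. All cells grew in RPMI with fetal bovine serum. The sources used here do not give how many clones or transfections each group came from, so the p-values measure the spread between cultures. The comparison asks which transcripts differ once Zeb1, a zinc-finger repressor of epithelial genes, is expressed.

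Claudins are tetraspan membrane proteins whose extracellular loops pair across the gap between neighbouring epithelial cells and form the strands of the tight junction. Some claudins close this paracellular path to ions and others line pores through it, so the set that a cell makes is known to set how leaky the epithelium is and to which ions. Cldn1, Cldn3 and Cldn4 are usually counted as sealing claudins and Cldn2 as the classic cation and water pore, while Cldn7 and Cldn8 are mostly counted as barrier-forming. Zeb1 is known to bind E-box letters in the promoters of epithelial genes.

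The array values were log2 MAS5 signals, scaled by the authors to a trimmed mean linear signal of 500 on each array. Values below the 25th percentile of all arrays (log2 4.45) were raised to that floor for the fit, whereas the values given per array below are as deposited. Array medians were 6.15 to 6.44, and a probe set was tested if 3 or more of the 6 arrays had it at or above their median. Taken over probe sets, which are no replicates, Pearson's r between 2 arrays was 0.980 to 0.983 within a group and 0.930 to 0.935 between the groups. Zeb1 itself was 9.69 ± 0.096 (SD, n = 3) on its brightest probe set in Zeb1 vector cells, against 4.47 ± 0.034 (SD, n = 3) in control vector cells. Epithelial identity was checked on 6 markers, of which 4 fell (Cdh1, Cdh3, Epcam and Krt8) and 2 were not called (Krt18 and Krt19). Krt8, Krt18 and Krt19 averaged 14.32, 14.72 and 13.42 in Zeb1 vector cells and 14.47, 14.69 and 13.46 in control vector cells. Cdh1 averaged 10.17 in Zeb1 vector cells and 14.18 in control vector cells, Epcam 6.66 in Zeb1 vector cells and 13.72 in control vector cells, and Cdh3 5.15 in Zeb1 vector cells and 6.88 in control vector cells, where Cdh3 passed the filter through the control vector arrays alone. The log2 of the summed signal of 8 mesenchymal markers ran from 15.18 to 15.38 in Zeb1 vector cells and from 12.81 to 12.97 in control vector cells. Of the 4 tested, Cdh2, Vim and Fn1 rose, by 4.89, 2.86 and 1.14 on the log2 scale, and Col1a2 had a log2 change of -0.03 (limma adjusted p = 0.947). Pdgfrb was at the floor on all 6 arrays. The part of these marker changes in those of the claudins was not tested. The log2 of the summed signal of 4 blood cell markers ran from 8.57 to 8.99 in Zeb1 vector cells and from 8.84 to 9.07 in control vector cells, and that of 4 endothelial markers from 8.10 to 8.71 in Zeb1 vector cells and from 8.18 to 8.64 in control vector cells, with Pecam1 at the floor on all 6 arrays. Of 5 alveolar and airway markers only Sftpb and Sftpc passed the filter, and the lung lineage factor Nkx2-1 averaged 4.63 in Zeb1 vector cells and 4.79 in control vector cells.

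In Zeb1 vector cells the sealing claudins Cldn3 and Cldn4 and the related Cldn7 fell to signals below the array median, each by over 100-fold, while the pore-forming Cldn2 rose 41.8-fold on 1 probe set and 7.60-fold on the other. Cldn6 and Cldn12 fell far less, by 0.60 and 0.69 on the log2 scale, and stayed bright. Cldn23, a dim signal, had a log2 change of -1.60. Cldn1, Cldn8 and Cldn9 were too dim in both groups to be tested.

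Promoter letters are shown first for the neighbouring genes Cldn3 and Cldn4, which both fell, and for Cldn2, which rose. RefSeq promoter windows of build GRCm38.p6, 250 bases before the start, were matched for 7 of the 10 claudins, with 10 windows in all, and those of Cldn8, Cldn9 and Cldn23 were not used here. The motif searched was CAGGTG, read on both strands (so also as CACCTG), the core of the E-box that Zeb1 is known to bind. The Cldn3 window (chr5:134985964-134986213, plus strand), the Cldn4 window (chr5:134946935-134947184, minus strand) and the Cldn2 window (chrX:139800558-139800807, plus strand) read as follows, with a match in capitals.
Cldn3: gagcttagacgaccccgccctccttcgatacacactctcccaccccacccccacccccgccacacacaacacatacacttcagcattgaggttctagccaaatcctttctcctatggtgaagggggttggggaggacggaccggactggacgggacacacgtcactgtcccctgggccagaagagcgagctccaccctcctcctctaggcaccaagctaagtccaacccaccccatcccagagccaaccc
Cldn4: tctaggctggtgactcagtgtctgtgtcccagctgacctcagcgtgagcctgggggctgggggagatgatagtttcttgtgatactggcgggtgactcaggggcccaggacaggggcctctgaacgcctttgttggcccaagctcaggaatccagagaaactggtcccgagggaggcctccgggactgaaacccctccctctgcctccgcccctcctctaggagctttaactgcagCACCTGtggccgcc
Cldn2: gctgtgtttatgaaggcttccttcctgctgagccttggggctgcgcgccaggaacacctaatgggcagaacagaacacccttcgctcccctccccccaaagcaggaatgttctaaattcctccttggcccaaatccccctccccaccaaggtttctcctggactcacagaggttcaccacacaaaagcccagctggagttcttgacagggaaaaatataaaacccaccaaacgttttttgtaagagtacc

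The Cldn4 window held 1 match, 14 bases before the start, and the Cldn3 and Cldn2 windows held none. The other members with a match were Cldn6 and the second annotated start of Cldn7, so that 3 of the 10 windows held the letters. Over all 32851 promoter windows of the same length the share was 17.2% (95% Wilson interval 16.8% to 17.6%). The looser E-box CANNTG, which contains CAGGTG, was found in 5 of the 10 windows, that of Cldn2 among them, against 66.2% of all windows. The 3 windows of Cldn12 overlap and held neither motif, so the 10 windows are not separate promoters. By gene, 5 of 7 held CANNTG and 3 of 7 held CAGGTG or CACCTG, whereas the shares over all windows are not by gene. Further matches lay within the 50 bases after the start in Cldn3, Cldn4 and Cldn6, a window added after the data were seen. With those bases included 4 of the 10 windows held CAGGTG or CACCTG, beside 20.2% of all windows. The 30-base stretches around these matches, each with the match in capitals and leaving out the Cldn4 match shown above, are given next with the position of the match relative to the start.
Cldn3, 32 bases into the transcript (chr5:134986233-134986262, plus strand): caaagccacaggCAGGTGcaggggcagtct
Cldn4, 12 bases into the transcript (chr5:134946906-134946935, minus strand): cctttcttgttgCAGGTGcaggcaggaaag
Cldn7, second start, 97 bases before it (chr11:69965312-69965341, plus strand): tttcttcctcttCACCTGgacgaggagggg
Cldn7, second start, 57 bases before it (chr11:69965352-69965381, plus strand): agacttccggttCAGGTGagtgtcccttca
Cldn6, 93 bases before the start (chr17:23679260-23679289, plus strand): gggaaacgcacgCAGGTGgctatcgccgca
Cldn6, 41 bases into the transcript (chr17:23679385-23679414, plus strand): aatcttagcagtctcttttgCAGGTGagcc

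The letters lay just inside the transcript start in Cldn3, in Cldn4, which fell at least 261-fold, and in Cldn6, which fell 1.52-fold. Cldn7 held 2 copies before its second start and none before its first, and Cldn12, which fell in the array data, held none in its 3 windows. A match is a description of letters in these windows, and binding was not measured.

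Of the 19 claudin probe sets, 12 from 7 genes passed the filter and all 12 were called at an adjusted p under 0.05 by limma with Benjamini-Hochberg adjustment over 20594 probe sets. Of these 10 fell, where falls made up 21.6% of all tested probe sets, and 2 rose, where rises made up 24.5%. Of all tested probe sets 46.1% were called. Of the 12, 7 probe sets of Cldn3, Cldn4, Cldn7 and Cldn23 passed the filter through their control vector arrays alone and so had to differ, and 5 probe sets of Cldn2, Cldn6 and Cldn12 lay at or above the median on all 6 arrays. None of the 12 had overlapping groups, which was so for 55.4% of all tested probe sets too.

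**Figure D1:**
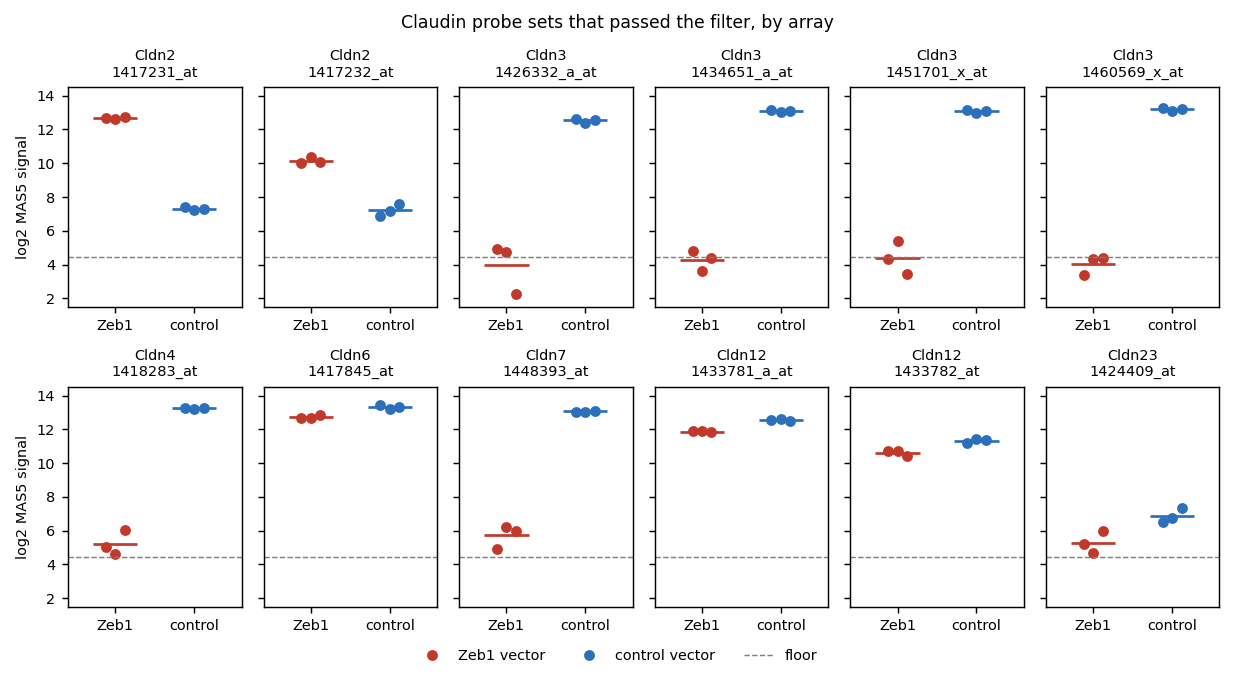
Deposited log2 MAS5 signal of the 12 claudin probe sets that passed the filter, 1 panel each. Points are arrays (3 Zeb1 vector, left, and 3 control vector, right), short lines are means of the deposited values, and the dashed line is the floor at 4.45. Cldn3, Cldn4 and Cldn7 lie above 12 in control vector cells and below 6.5 in Zeb1 vector cells, whereas both Cldn2 probe sets are higher in Zeb1 vector cells.

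Cldn3, a sealing claudin of simple epithelia, was read by 4 probe sets, and all 4 fell. On probe set 1460569_x_at the signals were 3.41, 4.32 and 4.36 in Zeb1 vector cells and 13.24, 13.11 and 13.23 in control vector cells. All 3 Zeb1 vector arrays were thus at the floor, and Cldn3 was at least 430-fold lower (log2 change -8.75, SE 0.105, limma adjusted p = 9.00e-11). On 1434651_a_at the signals were 4.78, 3.64 and 4.41 in Zeb1 vector cells, against 13.12, 13.03 and 13.09 in control vector cells, at least 369-fold lower. On 1426332_a_at they were 4.94, 4.73 and 2.26 in Zeb1 vector cells, against 12.65, 12.41 and 12.59 in control vector cells, at least 229-fold lower. The brightest on average, 1451701_x_at, read 4.32, 5.41 and 3.47 in Zeb1 vector cells, against 13.17, 12.97 and 13.12 in control vector cells, and was at least 320-fold lower. In all, 8 of the 12 Zeb1 vector values of Cldn3 lay at or below the floor, and no probe set of it overlapped between the groups. Suffixes with x mark probe sets some of whose probes also match other sequences. The 2 such probe sets of Cldn3 had changes of -8.75 and -8.32, beside -8.53 and -7.84 for the other 2.

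Cldn4, the sealing claudin whose gene is next to Cldn3 in the mouse genome, was read by 1 probe set, 1418283_at. Its signals were 5.01, 4.60 and 6.06 in Zeb1 vector cells and 13.26, 13.23 and 13.27 in control vector cells. All Zeb1 vector arrays lay above the floor but below their medians, so the fold is a lower bound: Cldn4 was at least 261-fold lower (log2 change -8.03, SE 0.298, limma adjusted p = 4.06e-08). Cldn7, which is found along the whole lateral membrane as well as at tight junctions, was read by 1448393_at, with signals of 4.93, 6.23 and 6.002 in Zeb1 vector cells and 13.04, 13.05 and 13.11 in control vector cells. It was at least 163-fold lower (log2 change -7.35, SE 0.278, limma adjusted p = 4.58e-08). The spread was wide in Zeb1 vector cells, with an SD of 0.751 for Cldn4 and 0.697 for Cldn7, and narrow in control vector cells, with SDs of 0.021 for Cldn4 and 0.036 for Cldn7. Replicate 1 was the lowest Zeb1 vector array for Cldn7 and replicate 2 for Cldn4, so the 3 cultures did not share 1 order.

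The size of these falls depends on where the floor is set, since the Zeb1 vector signals lie near background. With a floor at the pooled 50th percentile (log2 6.32) the log2 changes were -6.22 to -6.87 for the 4 Cldn3 probe sets, -6.93 for Cldn4 and -6.74 for Cldn7, and with no floor those of Cldn3 were -8.57 to -9.16. Of the 20594 tested probe sets, 1 fell further than the Cldn3 probe set 1460569_x_at, 6 further than Cldn4 and 14 further than Cldn7. The counts for Cldn4 and Cldn7 include probe sets of Cldn3, and that for Cldn7 also includes Cldn4.

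Cldn2, which forms cation-selective and water-permeable pores and is typical of leaky epithelia such as the proximal tubule, went the other way on both of its probe sets. On 1417231_at the signals were 12.69, 12.64 and 12.74 in Zeb1 vector cells and 7.39, 7.25 and 7.27 in control vector cells. This was 41.8-fold higher (log2 change 5.38, SE 0.086, limma adjusted p = 3.61e-10), and 24 tested probe sets rose further. On 1417232_at the signals were 10.01, 10.37 and 10.05 in Zeb1 vector cells, against 6.87, 7.19 and 7.58 in control vector cells, 7.60-fold higher (log2 change 2.93, SE 0.186, limma adjusted p = 1.45e-06). Both probe sets reached the array median in control vector cells too, so the rise began from a low signal. No detection call was used, and whether that signal lay above background was not tested. The probe sets agreed in direction but not in size. The difference between their log2 changes was 2.46, and per array the first change minus the second was 2.59, 2.18 and 2.60 in Zeb1 vector cells, against 0.43, -0.03 and -0.41 in control vector cells. A two-sided exact permutation test of that difference gave p = 0.1, the smallest that 3 arrays against 3 allow.

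Cldn6, a claudin of embryonic epithelia, stayed bright in Zeb1 vector cells. On 1417845_at its signals were 12.68, 12.65 and 12.85 in Zeb1 vector cells and 13.44, 13.21 and 13.34 in control vector cells. It was 1.52-fold lower (log2 change -0.60, SE 0.076, limma adjusted p = 0.000138), with no overlap of the groups. Cldn12, an unusual family member that lacks the C-terminal motif by which most claudins bind PDZ scaffolds, was read by 2 probe sets of nearly equal change. On 1433781_a_at it read 11.89, 11.88 and 11.82 in Zeb1 vector cells, against 12.53, 12.62 and 12.51 in control vector cells, 1.61-fold lower (log2 change -0.69, SE 0.059, limma adjusted p = 1.09e-05). On 1433782_at it read 10.71, 10.72 and 10.44 in Zeb1 vector cells, against 11.20, 11.44 and 11.34 in control vector cells, 1.64-fold lower. The difference between the changes of the 2 probe sets was 0.02 (exact permutation p = 0.7). For Cldn6 and Cldn12 the falls were small beside those of Cldn3, Cldn4 and Cldn7: 2739 and 2306 of the tested probe sets fell further than Cldn6 and than Cldn12 on its brighter probe set.

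Cldn23, a less studied claudin of intestinal and other epithelia, was dim in both groups. On 1424409_at its signals were 5.21, 4.67 and 5.98 in Zeb1 vector cells and 6.54, 6.76 and 7.35 in control vector cells, and the groups did not overlap. The log2 change was -1.60 (SE 0.388, limma adjusted p = 0.0074), or at least 3.02-fold lower. This call was lost with no filter on low signals (adjusted p = 0.0571) and under a floor at the 50th percentile (log2 change -0.56, adjusted p = 0.0503).

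**Figure D2:**
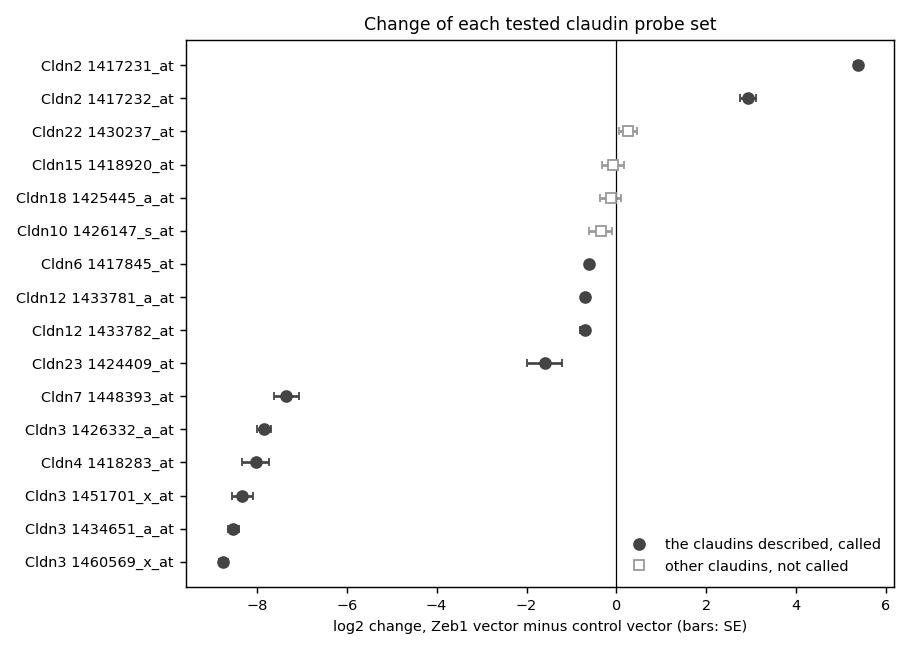
Log2 change (Zeb1 vector minus control vector) of each tested claudin probe set with its limma standard error. Filled circles are the 12 probe sets described here and open squares are 4 probe sets of other claudins that were not called. Cldn2 stands at 5.38 and 2.93, Cldn3, Cldn4 and Cldn7 between -8.75 and -7.35, and Cldn6 and Cldn12 between -0.71 and -0.60.

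The remaining 7 probe sets, of Cldn1, Cldn8 and Cldn9, did not pass the filter and are described without a call. Cldn1, the sealing claudin whose loss breaks the epidermal barrier in mice, had 4 probe sets. Its brightest, 1450014_at, read 6.10, 5.10 and 3.52 in Zeb1 vector cells and 5.10, 5.52 and 6.40 in control vector cells, and the groups overlapped. Another, 1438851_x_at, read 5.15, 5.61 and 4.49 in Zeb1 vector cells, against 5.30, 5.59 and 5.78 in control vector cells, again with overlap. Cldn8, a claudin of the distal nephron and colon, lay below the floor on all 6 arrays, at 2.35, 2.14 and 1.43 in Zeb1 vector cells and 2.83, 1.77 and 3.05 in control vector cells. Cldn9, best known from the inner ear and encoded beside Cldn6, read 3.84, 5.88 and 4.43 in Zeb1 vector cells, against 4.76, 6.60 and 5.87 in control vector cells on 1450524_at, and its other probe set lay below the floor on all arrays. Of the 21 values in each group, 14 were at or below the floor in Zeb1 vector cells and 10 in control vector cells. In a fit with no filter none of the 7 was called by limma (lowest adjusted p = 0.425, with 0 at an unadjusted p under 0.05). A change in these genes was not detectable at such signals, which does not show that there was none.

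**Figure D3:**
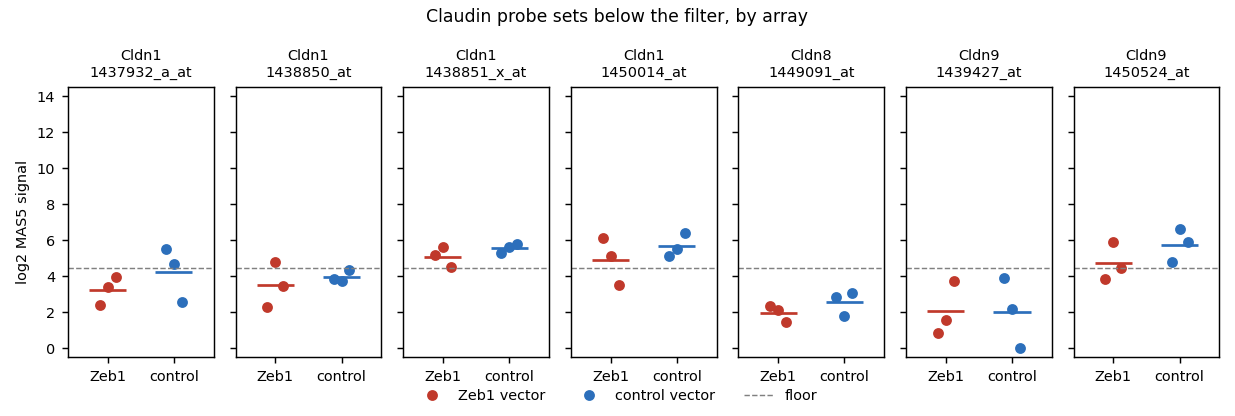
Deposited log2 MAS5 signal of the 7 claudin probe sets below the filter, on the same kind of axes, with Zeb1 vector arrays at the left and control vector arrays at the right of each panel. The dashed line is the floor at 4.45. All values lie between 0 and 6.60 and the groups overlap in every panel.

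The contrast between pore-forming Cldn2 and the barrier claudins was taken per array. For each gene the brightest probe set was used, its control mean was subtracted, and the changes of Cldn1, Cldn3, Cldn4, Cldn6, Cldn7, Cldn8 and Cldn9 were averaged. Cldn2 stood 5.38, 5.33 and 5.44 above its control mean in the 3 Zeb1 vector cultures, where the barrier mean stood at -3.79, -3.47 and -3.70. In control vector cells the same quantities were within 0.09 of 0 for Cldn2 and were -0.20, 0.06 and 0.14 for the barrier mean. Cldn2 minus the barrier mean was 9.04 ± 0.206 (SD, n = 3) in Zeb1 vector cells, with an SD of 0.249 (n = 3) in control vector cells around a mean of 0 by construction. The barrier mean rests on 3 of its 7 members, Cldn3, Cldn4 and Cldn7, since Cldn6 changed by -0.60, and Cldn1, Cldn8 and Cldn9, at or near the floor, by -0.46, 0 and -0.82. With the sealing claudins Cldn1, Cldn3 and Cldn4 alone the contrast was 10.99, with the mean of all probe sets of each gene 7.74, and under a floor at the 50th percentile 8.42. It carries no p-value, since it is a score over genes chosen with results known.

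**Figure D4:**
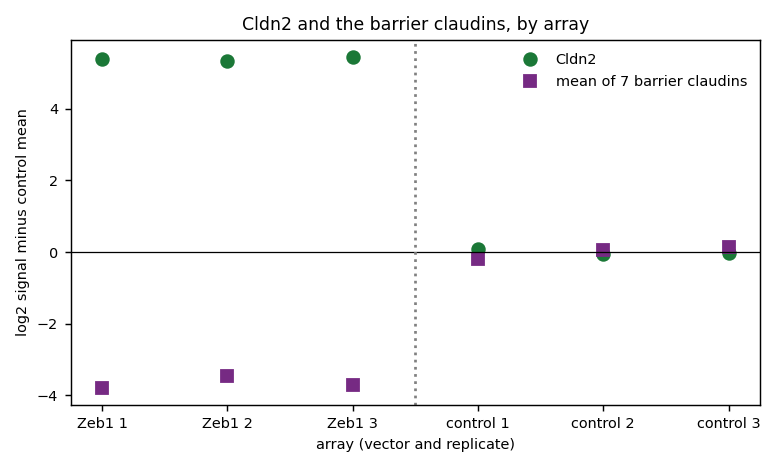
Log2 signal minus the control mean on each array, for Cldn2 (circles) and for the mean of 7 barrier claudins (squares), with the 3 Zeb1 vector arrays at the left of the dotted line and the 3 control vector arrays at the right. In Zeb1 vector cells Cldn2 lies between 5.33 and 5.44 and the barrier mean between -3.79 and -3.47.

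No other claudin on the array was called. Another 14 claudin genes were read by 16 probe sets, of which 4 passed the filter and 0 were called by limma at adjusted p under 0.05 (0 also at an unadjusted p under 0.05). Cldn18, the claudin of lung alveoli and stomach, averaged 6.92 in Zeb1 vector cells and 7.05 in control vector cells on its tested probe set (log2 change -0.13, SE 0.226, adjusted p = 0.68). Cldn15, a pore-forming claudin of the gut, averaged 6.49 in Zeb1 vector cells and 6.57 in control vector cells (log2 change -0.08, SE 0.246, adjusted p = 0.834). The log2 change was -0.35 for Cldn10 (SE 0.253, adjusted p = 0.303) and 0.26 for Cldn22 (SE 0.202, adjusted p = 0.33). Cldn5, the endothelial claudin, read 5.92, 6.52 and 4.07 in Zeb1 vector cells and 6.99, 5.57 and 6.15 in control vector cells, below the filter and with overlap.

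Position was compared by the order of genes in the RefSeq table, at the level of the brightest probe set per gene. Cldn3 and Cldn4 are each other's neighbours and fell together. The next genes on either side moved far less: Abhd11, beside Cldn3, fell by 0.56 on the log2 scale (SE 0.082, limma adjusted p = 0.00024) and Mettl27, beside Cldn4, rose by 0.43 (SE 0.151, limma adjusted p = 0.0362). Beside Cldn7, Elp5 rose by 0.83 (SE 0.087, limma adjusted p = 2.59e-05) and Slc2a4 had a change of -0.60 (adjusted p = 0.0842). Morc4, beside Cldn2 on the X chromosome, fell by 3.08 on the log2 scale (SE 0.086, limma adjusted p = 2.71e-09), opposite to the rise of Cldn2. Tnfrsf12a, beside Cldn6, had a change of -0.14 (adjusted p = 0.0928).

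The rest of the tight junction changed unevenly around the claudins. Of 42 other junction and polarity genes on the array, 38 were tested by their brightest probe set, of which 23 fell, 5 rose and 10 were not called. Over all 11893 tested genes 50.5% were called, 24.1% as falls and 26.4% as rises. The median log2 change of the list was -0.52, against 0.01 over all tested genes. The list was not tested as a set. For the 7 tested claudins the median was -1.60, which is the value of Cldn23. Of these claudins, Cldn3, Cldn4, Cldn7 and Cldn23 passed the filter through their control vector arrays alone and so had to differ. In the list, Igsf5, Marveld3 and St14 passed the filter through their control vector arrays alone and Wnk4 through its Zeb1 vector arrays alone. These 4 thus had to differ, and 20 falls and 4 rises stand without them. For some genes the call depended on the probe set. Cxadr, Pard3 and Prkcz were not called by their brightest, but another tested probe set of each was, at log2 changes of -0.83, 0.36 and -3.15. That of Prkcz passed the filter through the control vector arrays alone. Amot, Arhgef2, Magi3 and Sympk were called on their brightest probe set but not on every other tested one.

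By the brightest probe set of each gene, the largest falls in that list were in Epcam, St14 and Marveld3. Epcam binds Cldn7 and holds it at the lateral membrane, and St14 is the membrane protease matriptase, which cleaves Epcam. Marveld3 is a tight junction tetraspan protein. Crb3 had a log2 change of -2.35 on its brightest probe set, and of -2.95 and -7.30 on the others. The last, at least 157-fold lower, passed the filter through the control vector arrays alone. Epcam averaged 6.66 ± 0.409 in Zeb1 vector cells and 13.72 ± 0.080 in control vector cells (SD, n = 3 each), 133-fold lower (limma adjusted p = 1.32e-09). St14 averaged 5.07 ± 0.597 in Zeb1 vector cells and 11.67 ± 0.113 in control vector cells and was at least 96.7-fold lower, with 1 Zeb1 vector array at the floor. Marveld3 averaged 4.47 ± 0.041 in Zeb1 vector cells and 9.77 ± 0.031 in control vector cells and was at least 39.3-fold lower, with 2 Zeb1 vector arrays at the floor. Ocln, encoding occludin, averaged 6.87 ± 0.109 in Zeb1 vector cells and 11.43 ± 0.093 in control vector cells, 23.6-fold lower (limma adjusted p = 1.14e-09). The folds given for Epcam, Marveld3 and Ocln hold for their brightest probe sets. The other tested probe set of each fell less, with log2 changes of -3.33 for Epcam, -1.03 for Marveld3 and -1.98 for Ocln. On the brightest the log2 changes were -7.05, -5.30 and -4.56. Both tested probe sets of Marveld3 passed the filter through the control vector arrays alone. Epcam, St14, Marveld3 and Ocln fell with Cldn3, Cldn4 and Cldn7.

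Scaffold, adaptor and adhesion genes of the list differed among themselves. Tjp1, encoding the ZO-1 scaffold to which most claudins bind, averaged 11.96 ± 0.143 in Zeb1 vector cells and 12.13 ± 0.016 in control vector cells (log2 change -0.17, SE 0.076, limma adjusted p = 0.0824), so a difference was not called. For F11r, the junctional adhesion molecule A, the log2 change was -0.14 (SE 0.064, limma adjusted p = 0.0945). Tjp3, which encodes ZO-3, averaged 5.13 in Zeb1 vector cells and 5.56 in control vector cells, and did not pass the filter. Cgn, encoding the adaptor cingulin, was 4.83-fold lower (limma adjusted p = 4.91e-07).

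The 3 largest rises in the list were in Jam2, Wnk4 and Mpdz. Jam2, a junctional adhesion molecule of endothelium and other cells, averaged 10.94 ± 0.056 in Zeb1 vector cells and 7.74 ± 0.120 in control vector cells, 9.15-fold higher (limma adjusted p = 5.94e-09). Wnk4, a kinase known to phosphorylate claudins and to raise paracellular chloride flow in kidney cells, averaged 8.06 ± 0.132 in Zeb1 vector cells and 5.49 ± 0.191 in control vector cells, at least 5.94-fold higher (limma adjusted p = 6.18e-06). Mpdz, encoding the multi-PDZ scaffold MUPP1, was 3.69-fold higher (limma adjusted p = 1.05e-05).

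**Figure D5:**
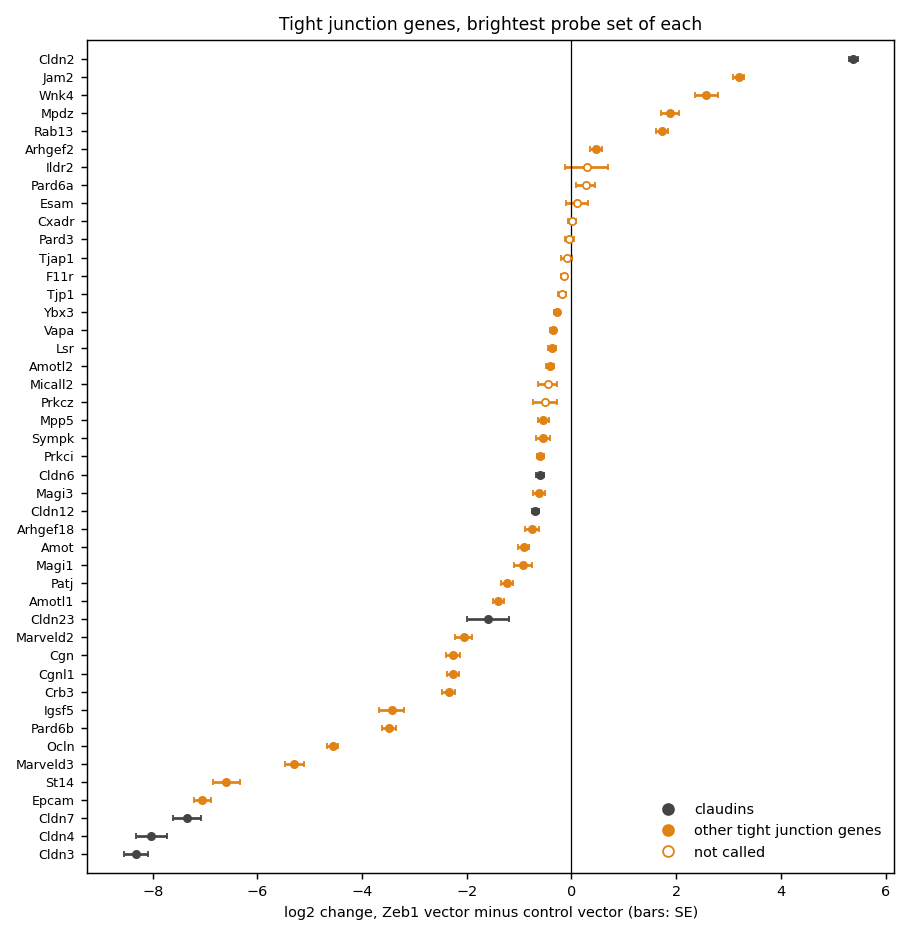
Log2 change (Zeb1 vector minus control vector) with standard error for the 7 tested claudin genes (dark) and 38 other tight junction genes (orange), each by its brightest probe set, sorted by change. Open symbols were not called. Cldn3, Cldn4, Cldn7 and Epcam lie at the far left, and Cldn2 at 5.38 lies to the right of Jam2 at 3.19.

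Genes whose pattern lay nearest to a claudin were found by the root mean square difference over the 6 arrays, each value taken minus the control mean. Since the 2 groups are far apart for these genes, such nearness is mainly a like log2 change. Each claudin was taken on its brightest probe set. Nearest to Cldn2 were Rasgrp3 (0.116), a Ras activator, Zeb1 itself (0.128) and the neuroendocrine transcription factor Insm1 (0.145). These hold for Cldn2 on 1417231_at, since its other probe set rose by 2.93 on the log2 scale. Zeb1 and Insm1 averaged 4.47 and 4.45 in control vector cells, at or near the floor, so the size of their rises depends on the floor. Nearest to Cldn3 were Mal (0.099), a proteolipid of apical transport, the vesicle GTPase Rab25 (0.253) and the keratin Krt7 (0.366). Cldn4 lay nearest to Krt7 (0.394), the protease inhibitor Ctla2a (0.406) and the potassium channel Kcnk1 (0.447). Cldn7 lay nearest to the proteoglycan gene Bgn (0.295), the surface antigen Psca (0.402) and the adhesion molecule Mpzl2 (0.417). Mal, the nearest to Cldn3, averaged 4.71 in Zeb1 vector cells and 12.92 in control vector cells. Rab25, Ctla2a, Kcnk1, Psca and Mpzl2 averaged 4.63, 4.55, 4.49, 4.62 and 4.45 in Zeb1 vector cells. Like Mal they were at or near the floor there, so the size of their falls depends on it. Bgn and Krt7 averaged 5.17 and 6.01 in Zeb1 vector cells.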

How the data were processed

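RNA from 3 Zeb1 vector and 3 control vector cultures was hybridised to Affymetrix arrays. The deposited values were log2 signals of 45101 probe sets, made by the authors with MAS5, per the submitters' processing notes, and the version is not known here. Out of log2, 100% were multiples of 0.1 and the linear mean with 2% trimmed at each end was 500 on each array. The 2 missing values, on a control vector array, were placed at the floor. Probe sets came with the platform annotation: 64 controls, 932 with several symbols and 9160 with none here were left out, which left 34945. Of these 34741 matched RefSeq by Entrez identifier and 0 symbols changed.

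Values were floored at the 25th percentile and 20594 probe sets passed the filter described above. limma 3.58.1 in R 4.3.3 (lmFit, eBayes with intensity trend) compared the groups, with Benjamini-Hochberg adjustment over all tested probe sets, or over 11893 genes for the genes that are no claudins and for neighbours, and a threshold of 0.05. Nearest-pattern values and other claudins are at probe set level. The fit was tested on simulated data. "Rose" and "fell" mark called changes. A fold is written "at least" where an array of the lower group was at the floor or its mean lay below the pooled median. Precision is limited by having 3 arrays per group, and log2 changes had a median SE of 0.147. The members, gene lists and alternatives were chosen with earlier results of these data known. The genes named are all claudin probe sets, the tight junction genes at the ends of their list with a few fixed ones, and the 3 genes nearest to each of 4 claudins. Abhd11, Mettl27 and other neighbours were named by position. Same-numbered arrays did not deviate together (r = 0.017, 0.014 and -0.039), so replicate numbers were not used as pairs. A planned comparison of claudin proteins was not run.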

Additional observations from a re-analysis of the deposited data

How the results depend on the processing

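Of 167 values of single claudin probe sets under 14 alternatives, 165 kept their direction and call and 0 reversed. The 2 others were Cldn23 with no filter (limma adjusted p = 0.0571) and under a floor at the 50th percentile (-0.56, limma adjusted p = 0.0503). Cldn23 was not tested under the stricter filter (75th percentile). Of the probe sets, 7 passed the filter through the control vector arrays alone and had to differ, so their kept direction says little. The 5 probe sets of Cldn2, Cldn6 and Cldn12, at or above the median on all 6 arrays, kept direction and call under all 14 alternatives. The counts of 2 rises and 10 falls held when any 1 array was left out (2 to 2 and 10 to 10), with the tested probe sets kept from the 6 arrays, while all called probe sets were then 4309 to 5004 rises and 3913 to 4213 falls. With the replicate block, which is not a pairing in the design, claudin probe sets gave 2 rises and 10 falls and all probe sets 4957 and 4420, so no claudin call changed. At gene level 1 rise and 6 falls stood with either rule for several probe sets. The contrast of Cldn2 with the barrier claudins (9.04) was 8.42 under a floor at the 50th percentile, 10.99 with the narrow list, 7.74 with the mean of all probe sets, and 8.91 to 9.18 without 1 array. The share of promoters with CAGGTG (17.22%) was 66.22% for CANNTG and 20.21% with the 50 bases after the start, since looser letters and longer windows match more often.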
